A study of Homo sapiens with 24 samples.

Results

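The comparison described here sets vehicle-treated TF-1 cells against vehicle-treated UT-7 cells, that is, the untreated state of 2 human acute myeloid leukemia cell lines across all measured genes. The members were the 4 vehicle libraries of each line, 8 of the 24 libraries of the study, chosen from the cell line and treatment given in the labels and not from any measured value. The study grew TF-1, UT-7 and UCSD-AML1, which its design calls EVI1-driven (EVI1 is the product of MECOM), for 24 h with vehicle or with 3 mM cyclocreatine, an analog of creatine, and sequenced 4 libraries per group. The groups used below are TF-1 with vehicle, UT-7 with vehicle, the same lines with cyclocreatine as a repeat of the comparison, and UCSD-AML1 with vehicle as a further level for each gene. All 3 lines are labelled as acute myeloid leukemia, the vehicle is not named, and the sources at hand give neither culture medium nor growth factor, so culture conditions and cell line cannot be told apart. Separate cultures are not stated for the 4 libraries of a group in the labels, and p-values therefore measure only the spread between these libraries, which may be technical. The labels give bone marrow as the source. Each group is a single line, and a difference between the lines is a difference between these lines and not between cell types.

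TF-1 is known as an erythroleukemia line and UT-7 as a megakaryoblastic line, and both depend in culture on a growth factor such as GM-CSF. Red cell precursors and platelet-forming megakaryocytes share a progenitor and share the transcription factors GATA1, TAL1 and NFE2. They part when KLF1 favours red cell genes and FLI1 favours megakaryocyte genes. Mast cells and basophils also use GATA2 and the receptor KIT, so lines from this branch can carry features of several of these lineages.

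Levels are given as CPM, the usual unit of counts relative to a library total, with totals scaled by TMM (a factor that corrects for composition), as mean ± SD over n = 4 libraries. Log2 fold changes are TF-1 minus UT-7 with an approximate SE derived from the F statistic, and adjusted p-values are Benjamini-Hochberg values over all tested genes from edgeR's quasi-likelihood test. A gene was called when its adjusted p was under 0.05, and it counted as large when it was called and differed at least 2-fold. Where a line had no count of a gene in any library, the fold is a lower bound against 3 counts per library, and such bounds cover counting error only. Where a line had only a few counts per library, the size of the fitted fold change depends on the model.

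Library totals ran from 15112620 to 17047051 counts in TF-1 and from 12874459 to 15115540 in UT-7, and 16368 to 17102 genes had a count in a TF-1 library against 16603 to 16921 in a UT-7 library. The leukocyte gene PTPRC, which encodes CD45, stood at 349 ± 5.81 CPM in TF-1 and 635 ± 20.3 in UT-7, and the myeloid surface gene CD33 at 142 ± 6.43 CPM in TF-1 and 114 ± 4.01 in UT-7. Of the 9 red cell markers, none was at 0 in either line, and the fetal globin gene HBG2 had 791 against 585 CPM. Megakaryocyte markers were mixed. ITGA2B, the integrin chain CD41, was at 574 ± 11.3 CPM in TF-1 and 893 ± 17.8 in UT-7, whereas the platelet chemokine PF4 had 0 counts in both lines and VWF had 0.0447 against 0.105 CPM. UT-7 also held little GP9 (0.189 CPM), so of these markers ITGA2B was high in UT-7 and GP9, PF4 and VWF were low or absent. MS4A1 and LCK of lymphoid cells had 0 counts in both lines, KRT19 had 1 count in UT-7 and 0 in TF-1, and ELANE, CD14, S100A8 and S100A9 of granulocytes and monocytes stayed at or below 0.122 CPM in both. Others of that set were higher, with LYZ, the lysozyme gene, at 109.7 against 82.3 CPM, the transcription factor SPI1 at 94.3 against 136 CPM and CSF1R at 9.04 against 0.568 CPM.

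The lines differed in most of what they expressed. Of 14588 tested genes, 11626 were called (79.7%), 5984 of them higher in TF-1 (41%) and 5642 higher in UT-7 (38.7%), and in 75.2% of all tested genes the 4 libraries of one line lay entirely above those of the other. With library totals alone in place of TMM scaling the larger side turned, to 5557 genes called higher in TF-1 and 6117 in UT-7. Large differences were found for 4898 genes (33.6%), with 2921 higher in TF-1 (20%) and 1977 higher in UT-7 (13.6%). At least 10-fold differences were more numerous in TF-1, with 967 genes against 331 in UT-7. The median log2 fold change over all tested genes was 0.01 and the median size of a difference was 0.66 on the log2 scale. These percentages are the background for each gene group below. With most genes called, a call alone says little about a group, and the counts of large differences are given first. TF-1 vehicle replicate 1 had 576 genes counted in no other library of its group, against 271 to 417 in the other 7 libraries, and without it 2930 and 2021 genes were large.

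**Figure D1:**
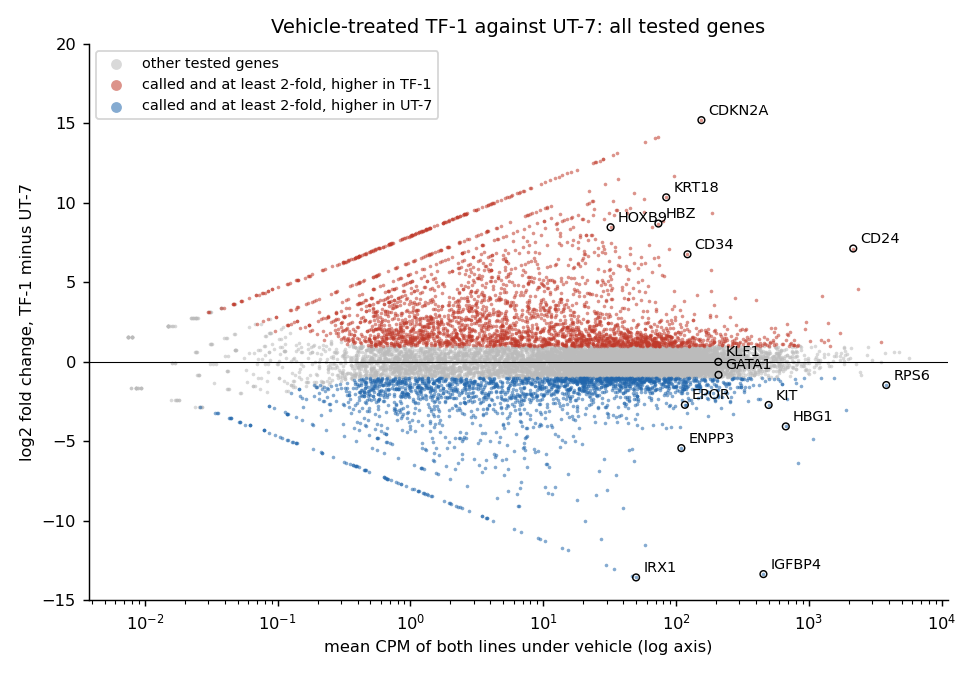
Mean CPM of TF-1 and UT-7 under vehicle (log axis) against the log2 fold change TF-1 minus UT-7, 1 point per tested gene. Red and blue points are the 2921 and 1977 genes called and at least 2-fold higher in TF-1 or UT-7, and the diagonal edges are genes with few or no counts in 1 line, whose fitted fold change depends on the model and is no estimate of size.

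Several of the most abundant transcripts of TF-1 were much lower in UT-7, and their known roles are varied. CD24, a small glycosylated surface protein, had 4191, 4333, 4237 and 4377 CPM in the 4 TF-1 libraries and 27.8, 30.7, 33.4 and 30.6 in the 4 UT-7 libraries (log2 fold change 7.13 ± 0.05 (SE), adjusted p = 2.68e-47). No library of one line came near those of the other, and the fold was 139.8. CD24 has near-identical copies in the genome, and how reads were placed among them is unknown here. SSR3, a subunit of the translocon-associated complex of the endoplasmic reticulum, had 4504 ± 68.9 CPM in TF-1 and 187 ± 2.55 in UT-7, a 24-fold difference. GMPS of guanine nucleotide synthesis, its near neighbour in gene order, had 2391 ± 54.9 CPM in TF-1 and 138 ± 1.52 in UT-7. Fatty acid synthase, FASN, stood at 2004 ± 118 CPM in TF-1 and 762 ± 24.7 in UT-7 and the desaturase SCD at 2333 ± 54.8 CPM in TF-1 and 435 ± 11.9 in UT-7. All 4 TF-1 libraries exceeded all 4 UT-7 libraries for both genes. Glycolytic GPI was at 2689 ± 32 CPM in TF-1 and 750.3 ± 16.6 in UT-7 and PKM at 1831 ± 33.2 CPM in TF-1 and 782 ± 8.17 in UT-7. Among the 15 genes chosen for the largest difference in CPM were also PABPC1, which binds poly(A) tails (4893 against 2053 CPM), the protease inhibitor SPINT2 (1614 against 284 CPM), DKC1 of telomerase and of RNA modification (1497 against 363 CPM) and the ribosomal protein RPL10 (1784 against 684 CPM).

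UT-7 had its own set of abundant genes. RPS6, a protein of the small ribosomal subunit, had 1953, 2087, 2052 and 2043 CPM in the 4 TF-1 libraries and 5753, 5545, 5601 and 5559 in the 4 UT-7 libraries (log2 fold change -1.47 ± 0.04 (SE), adjusted p = 2.16e-30), with every UT-7 library above every TF-1 library. The 2 ATPases of the SWI/SNF chromatin remodelling complex were both higher in UT-7, SMARCA2 at 71.4 ± 2.9 CPM in TF-1 and 2081 ± 43.4 in UT-7 and SMARCA4 at 451 ± 13.9 CPM in TF-1 and 1142 ± 14.7 in UT-7. HPGD, which inactivates prostaglandins, stood at 19.7 ± 3.02 CPM in TF-1 and 1633 ± 52.7 in UT-7, LAPTM5 of lysosomes in blood cells at 1013 ± 14.7 CPM in TF-1 and 2070.4 ± 30.7 in UT-7, and DOCK8, an activator of the small GTPase CDC42, at 140.5 ± 9.32 CPM in TF-1 and 709 ± 15.8 in UT-7. Insulin-like growth factor binding protein IGFBP4 had 911, 912, 921 and 893 CPM in the UT-7 libraries and 5 counts in all 4 TF-1 libraries together. IGFBP4 was thus abundant in one line and nearly uncounted in the other.

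Some genes were on in one line and close to absent in the other. In 193 genes every UT-7 library had at most 3 counts while the TF-1 mean was at least 5 CPM, and 39 genes showed the reverse. A count of 3 corresponded to 0.208 CPM in UT-7 and 0.188 CPM in TF-1. Among the 193, the highest level was that of CDKN2A, which encodes the cell cycle inhibitor INK4A, with 306, 331, 304 and 299.9 CPM in TF-1 and 0 counts in each UT-7 library, at least 1492-fold higher. Others with 0 counts in UT-7 were APP, the amyloid precursor (146 ± 5.36 CPM in TF-1, at least 701-fold), the guanine exchange factor DOCK1 (117 ± 4.06 CPM, at least 564-fold), EPHX2, an epoxide hydrolase (53.2 ± 1.57 CPM, at least 256-fold), HTATIP2 (35.9 ± 1.37 CPM, at least 173-fold) and LIN28B, which blocks let-7 maturation (56.7 ± 4.2 CPM, at least 273-fold). In the other direction the homeobox gene IRX1 had 101, 99.1, 102 and 96.9 CPM in UT-7 and 0 counts in TF-1, BHLHE22 67.7 ± 1.69 CPM with 0 counts, and KIAA0040 93.3 ± 2.26 CPM with 0 counts. Also found almost only in UT-7 were the calcium-binding protein gene CALB2 (117 ± 2.72 CPM with 2 counts in TF-1) and, at a lower level, FAM111B, which acts in DNA replication (0 against 30.5 CPM). IRX1, BHLHE22 and CALB2 are best known from tissues outside the blood. UCSD-AML1 under vehicle reached 5 CPM for 59 of the 193 genes (30.6%) and for 10 of the 39 (25.6%). After cyclocreatine, 164 of the 193 still had at most 3 counts in every UT-7 library, and 30 of the 39 in every TF-1 library.

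Globins were expressed in both lines in different mixtures. HBZ, the embryonic zeta chain, had 143, 152, 144 and 148 CPM in the 4 TF-1 libraries and 0.352, 0.207, 0.571 and 0.224 in the 4 UT-7 libraries (log2 fold change 8.70 ± 0.15 (SE), adjusted p = 1.11e-27). HBA1, an adult alpha chain, had 225, 211, 197 and 223 CPM in the 4 TF-1 libraries and 14.1, 14.8, 16.3 and 14.3 in the 4 UT-7 libraries (log2 fold change 3.84 ± 0.12 (SE), adjusted p = 2.60e-14). Both alpha-like genes were thus far lower in UT-7. HBZ lay near 3 counts per library there, so the size of its fold change depends on the model. HBA2 was also lower in UT-7, with 129 CPM in TF-1 against 2.54. The fetal gene HBG1 went the other way, with 76.5, 75, 76.5 and 73.5 CPM in the 4 TF-1 libraries and 1250.3, 1251, 1293 and 1265 in the 4 UT-7 libraries (log2 fold change -4.07 ± 0.10 (SE), adjusted p = 1.49e-17), and its near-identical copy HBG2 was closer, at 791 ± 26.1 CPM in TF-1 and 585 ± 24.2 in UT-7. How reads were divided within each near-identical pair (HBG1 and HBG2, HBA1 and HBA2) is uncertain, so the pairs were also summed. As a share of all globin counts, not corrected for gene length, gamma chains took 56.7% to 59.8% in the TF-1 libraries and 95.2% to 95.8% in the UT-7 libraries. Alpha chains took 21.7% to 25% against 0.842% to 0.956%, and zeta 9.72% to 10.2% against 0.0108% to 0.0286%. Of the other beta-like genes, embryonic HBE1 (44.5 against 15.4 CPM) and adult HBB (43.6 against 8.54 CPM) were higher in TF-1, and HBD (20.2 against 36.5 CPM) was higher in UT-7. In all, 6 of the 9 tested globins were large in TF-1 and 1 in UT-7. Summed over all globins, the share of counts was nevertheless higher in UT-7, at 0.201% ± 0.00523 against 0.146% ± 0.00088 (exact permutation test, two-sided, p = 0.0286, the smallest that 4 against 4 libraries allow, adjusted p = 0.0286 over 3 shares, n = 4). In bulk RNA, a lower level can mean fewer expressing cells or less RNA per cell, and these cannot be told apart here.

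Genes that make heme and handle iron leaned to TF-1. Of 27 tested genes, 8 were large in TF-1 and 0 in UT-7, 22 and 4 were called, and the median log2 fold change was 0.59, against 0.01 over all tested genes. ALAS2, the red cell form of the first enzyme of heme synthesis, had 196, 204, 211 and 206 CPM in the 4 TF-1 libraries and 36.7, 39.8, 31.5 and 34.1 in the 4 UT-7 libraries (log2 fold change 2.52 ± 0.06 (SE), adjusted p = 1.81e-30). Its general form ALAS1 was also higher, at 137 ± 4.22 CPM in TF-1 and 38 ± 0.921 in UT-7. HMOX1, which breaks heme down, stood at 62.1 ± 2.78 CPM in TF-1 and 1.49 ± 0.199 in UT-7, FTH1, the ferritin heavy chain, at 1119.9 ± 24.2 CPM in TF-1 and 532 ± 10.1 in UT-7, and ABCB10, a mitochondrial transporter, at 134 ± 5.53 CPM in TF-1 and 63.8 ± 2.0 in UT-7. With library totals alone as scaling, 5 of these genes were large in TF-1.

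Red cell surface and skeleton genes divided. Of 22 tested, 11 were large in TF-1 and 1 in UT-7, yet 12 and 10 were called, so smaller differences favoured UT-7. GYPE and GYPB, of the glycophorin family, were higher in TF-1. GYPE had 75.9, 74.6, 71.5 and 75.9 CPM in the 4 TF-1 libraries and 8.1, 7.03, 6.91 and 7.08 in the 4 UT-7 libraries (log2 fold change 3.35 ± 0.08 (SE), adjusted p = 5.88e-31), without overlap, and GYPB had 27.5 against 2.2 CPM. They share sequence, and the split of reads between them is uncertain. SLC4A1, the anion exchanger of the red cell, was at 25.1 ± 2.09 CPM in TF-1 and 4.06 ± 0.546 in UT-7, and RHD of the Rh blood group at 53.1 ± 1.29 CPM in TF-1 and 4.66 ± 0.599 in UT-7. DMTN, an actin-bundling protein of the membrane skeleton, was the member large in UT-7, at 16 against 87.6 CPM. The spectrin gene SPTB (named after its value was seen) stood at 111 against 222 CPM, just under 2-fold, and a second member was large in UT-7 when TF-1 replicate 1, UT-7 replicate 3 or UT-7 replicate 4 was left out.

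The transcription factors that govern these lineages differed in both directions. Of 24 tested regulators, 3 were large in TF-1 and 5 in UT-7, and the median log2 fold change was -0.07. KLF1 had 203, 202, 217 and 208 CPM in the 4 TF-1 libraries and 209, 213, 212 and 201 in the 4 UT-7 libraries. The libraries overlapped, the gene was not called (log2 fold change -0.01 ± 0.06 (SE), adjusted p = 0.919), and its sign turned with other scaling. GATA1 had 149.7, 149.7, 147 and 157 CPM in the 4 TF-1 libraries and 259, 271, 274 and 262 in the 4 UT-7 libraries (log2 fold change -0.82 ± 0.04 (SE), adjusted p = 9.75e-20), with all UT-7 libraries above all TF-1 libraries. TAL1 was likewise higher in UT-7, at 366 ± 3.94 CPM in TF-1 and 840.2 ± 9.36 in UT-7, as were NFE2 (179 against 369 CPM), LYL1 (143 against 355 CPM), MYB (349.6 against 739 CPM) and RUNX1 (171 against 294 CPM). GATA2 differed little, at 627 ± 12.6 CPM in TF-1 and 736 ± 20.6 in UT-7 (log2 fold change -0.23 ± 0.03 (SE), adjusted p = 1.04e-08). FLI1, the ETS factor of megakaryocytes and endothelium, was higher in TF-1, at 212 ± 5.06 CPM in TF-1 and 79.7 ± 2.51 in UT-7, and so was BCL11A, a repressor of fetal globin (8.27 against 1.45 CPM).

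The promoters of 2 red cell genes whose levels differed in opposite directions are shown because both contain a GATA motif, the site type that GATA factors recognise. The sequences are the 150 bases before the gene start from RefSeq (build GRCh38.p14), 5′ to 3′ on the gene's strand, and capitals mark AGATAA or its reverse complement TTATCT. ALAS2 (chrX:55030978-55031127, minus strand) was higher in TF-1, and HBD (chr11:5234484-5234633, minus strand) was higher in UT-7.
ALAS2: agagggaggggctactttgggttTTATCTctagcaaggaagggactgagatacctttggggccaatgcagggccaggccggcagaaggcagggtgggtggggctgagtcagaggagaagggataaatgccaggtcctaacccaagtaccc
HBD: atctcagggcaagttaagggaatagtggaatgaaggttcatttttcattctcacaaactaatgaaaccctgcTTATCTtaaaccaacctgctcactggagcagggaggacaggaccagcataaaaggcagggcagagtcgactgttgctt
Of the 60 globin, heme and red cell membrane genes listed, 38 had a promoter in the table. In 12 of them (31.6%) the 250 bases before the start held AGATAA on either strand, against 11.1% of all 27305 genes of the table. GYPB and GYPE, which share sequence, were both among the 12, so these are not all separate occurrences. A match to these letters describes the sequence and is not evidence of a bound site.

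Megakaryocyte genes differed in both directions. GP1BA, part of the platelet receptor for von Willebrand factor, had 42, 41.3, 41.1 and 41.5 CPM in the 4 TF-1 libraries and 7.4, 9.17, 8.31 and 9.02 in the 4 UT-7 libraries (log2 fold change 2.29 ± 0.07 (SE), adjusted p = 6.06e-27), and its partner GP9 had 11.3 ± 1.21 CPM in TF-1 and 0.189 ± 0.151 in UT-7. TF-1 was higher in every library for both genes. SELP (7.96 against 1.01 CPM), MMRN1 of platelet granules (68.7 against 18.5 CPM), RAB27B of granule secretion (17.5 against 1.58 CPM) and LTBP1 (14.8 against 0.496 CPM) were also higher in TF-1. Over the list, 10 of 27 tested members were large in TF-1 and 3 in UT-7, and 8 were not called. ITGA2B was 1 of 6 called higher in UT-7 (log2 fold change -0.64 ± 0.03 (SE), adjusted p = 7.64e-21). The members large in UT-7, named after their values were seen, were the purinergic receptor P2RY1 (34.6 against 80.1 CPM), the thromboxane synthase TBXAS1 (20.1 against 51.9 CPM) and the platelet chemokine PPBP (0.0946 against 0.887 CPM). The summed level of the list was higher in UT-7, at 1503 to 1555 CPM against 1291 to 1345 in TF-1.

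Mast cell and basophil genes had the lowest median of the 31 lists, on the UT-7 side. Of 16 tested genes, 10 were large in UT-7 and 1 in TF-1, and the median log2 fold change was -1.59. Thus 62.5% of its tested members were large in UT-7, beside 13.6% of all tested genes. ENPP3, an ectonucleotidase used to mark basophils and mast cells, had 5.24, 4.16, 4.7 and 5.63 CPM in the 4 TF-1 libraries and 216, 215, 207 and 218 in the 4 UT-7 libraries (log2 fold change -5.43 ± 0.07 (SE), adjusted p = 1.38e-39). IL1RL1, an interleukin receptor chain of mast cells, had 6.19, 5.37, 5.42 and 6.17 CPM in the 4 TF-1 libraries and 105, 102, 105 and 107 in the 4 UT-7 libraries (log2 fold change -4.18 ± 0.06 (SE), adjusted p = 2.61e-37). For both genes the UT-7 libraries lay far above those of TF-1. Carboxypeptidase CPA3 stood at 76.5 ± 2.99 CPM in TF-1 and 335 ± 5.95 in UT-7, HDC, which makes histamine, at 154 ± 5.71 CPM in TF-1 and 467 ± 9.07 in UT-7, HPGDS of prostaglandin D synthesis at 22 against 104 CPM, and SIGLEC6 at 24.3 against 123 CPM. The tryptase genes TPSAB1 (0.604 against 9.29 CPM) and TPSB2 (2.56 against 16.1 CPM) are near-identical, and their levels are uncertain. The IgE receptor chain MS4A2 differed the other way (10.2 against 5.85 CPM), while CLC and EPX of eosinophils had at most 0.813 CPM in both lines.

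Myeloid and progenitor genes separated the lines at a few strong points. CD34, the surface protein of blood progenitors, had 244, 243, 228 and 251 CPM in the 4 TF-1 libraries and 2.39, 2.14, 2.66 and 1.57 in the 4 UT-7 libraries (log2 fold change 6.77 ± 0.07 (SE), adjusted p = 3.83e-43). KIT, the stem cell factor receptor, showed the opposite, with 135, 124, 138 and 128 CPM in the 4 TF-1 libraries and 854, 865, 851 and 886 in the 4 UT-7 libraries (log2 fold change -2.72 ± 0.04 (SE), adjusted p = 1.29e-36). In neither gene did the lines overlap. Other progenitor genes were split, with NPR3 (99.5 against 3.07 CPM), ANGPT1 (17.8 against 5.23 CPM) and MECOM (13 against 6.34 CPM) higher in TF-1 and CD38 (1.17 against 8.42 CPM) higher in UT-7, and 7 of 21 tested members were not called. CEBPA, the factor that starts granulocyte differentiation, had 36.3, 40.4, 36.3 and 32.1 CPM in the 4 TF-1 libraries and 0.0704, 0.345, 0.19 and 0.149 in the 4 UT-7 libraries (log2 fold change 7.51 ± 0.16 (SE), adjusted p = 5.21e-33). SPI1, its partner in myeloid cells, was higher in UT-7 at 94.3 ± 3.91 CPM in TF-1 and 136 ± 5.78 in UT-7. ITGAM, the integrin CD11B, was at 65.6 against 15.3 CPM and CSF1R, the receptor of monocyte growth factor, at 9.04 against 0.568 CPM, whereas the repressor GFI1 was at 11.5 against 57 CPM. Counts of large genes were 8 in TF-1 and 2 in UT-7 of 22 granulocyte and monocyte genes, and 13 and 4 of 23 lymphoid genes. CD4 (238 against 62.5 CPM), CD7 (6.78 against 1.08 CPM) and CD22 (6.78 against 0.362 CPM) were among them, besides CD24, all higher in TF-1. When the fit held only the 8 vehicle libraries, fewer genes passed the filter on low counts, 5 and 1 of the granulocyte and monocyte genes were large, and so were 9 and 1 of the lymphoid genes.

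**Figure D2:**
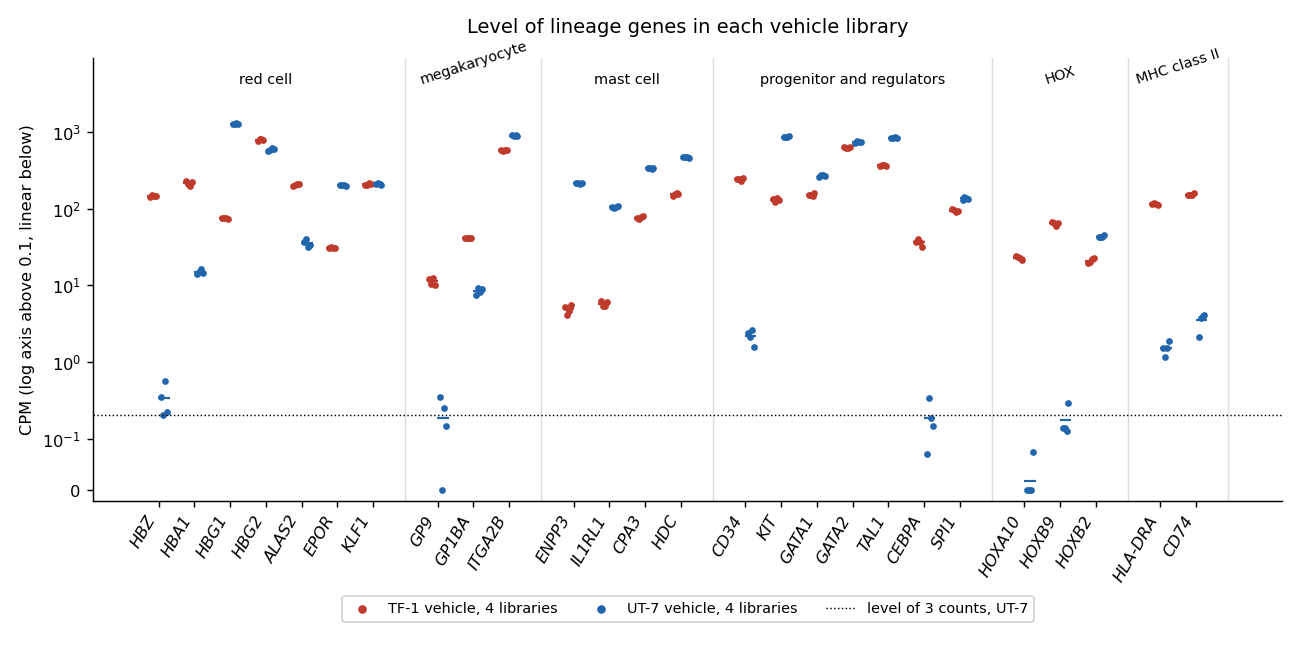
CPM of lineage genes in each vehicle library (log axis above 0.1, linear below), red for TF-1 and blue for UT-7, with a bar at the mean of 4 libraries and a dotted line at the level of 3 counts in UT-7. Replicates lie close together, KLF1 overlaps between the lines, and HBZ, GP9, CEBPA, HOXA10 and HOXB9 lie near the line of 3 counts in UT-7.

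HOX genes, which keep progenitors in an immature state and are often raised in leukemia, had a higher summed level in TF-1. All 39 listed genes together stood at 189 to 200.4 CPM in TF-1 and 98.5 to 109 in UT-7. Of these, 19 passed the filter on low counts, and a gene could pass through the line where it was high. Among these, 13 were large in TF-1 and 2 in UT-7. HOXB9 had 67.6, 64.5, 59.3 and 65 CPM in the 4 TF-1 libraries and 0.141, 0.138, 0.127 and 0.298 in the 4 UT-7 libraries (log2 fold change 8.47 ± 0.17 (SE), adjusted p = 5.23e-28). HOXA10 had 23.9, 23.2, 22.7 and 21.3 CPM in the TF-1 libraries and 1 count in all UT-7 libraries together, HOXA11 had 8.47 ± 0.435 CPM with 2 counts, and HOXA4 had 5.3 ± 0.774 CPM with 0 counts. HOXB9 in UT-7 lay near 3 counts per library, so the size of its fold change depends on the model. The anterior HOXB genes behaved differently from HOXB9. HOXB2 (21 ± 1.4 CPM in TF-1 and 43.3 ± 1.26 in UT-7) and HOXB3 (10.7 against 17.9 CPM) were higher in UT-7, and HOXB4 differed little (26.8 against 30.0 CPM, adjusted p = 0.0281 from edgeR), a call lost under 6 of the 16 alternatives tried. HOXA9 had 3 counts in all TF-1 libraries and 0 in UT-7, and was not called. With genes at 0 counts in a line set to their bound, the median log2 fold change was 3.13.

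Receptors for blood growth factors differed in both directions. EPOR, the erythropoietin receptor, had 30.9, 31.4, 30.8 and 30.4 CPM in the 4 TF-1 libraries and 202, 205, 202 and 199.7 in the 4 UT-7 libraries (log2 fold change -2.71 ± 0.05 (SE), adjusted p = 1.09e-34), so that UT-7 held 6.54 times the TF-1 level. CSF2RB, the beta chain shared by the receptors of GM-CSF and interleukins of its family, had 292, 291, 313 and 289 CPM in the 4 TF-1 libraries and 569, 574, 576 and 567 in the 4 UT-7 libraries (log2 fold change -0.95 ± 0.04 (SE), adjusted p = 2.56e-23). Of the ligand-binding chains that pair with it, CSF2RA had 18.7 ± 1.93 CPM in TF-1 and 16.4 ± 0.763 in UT-7 and overlapped between the lines (log2 fold change 0.19 ± 0.09 (SE), adjusted p = 0.0405), a call lost in 8 of the 16 alternatives tried, and IL3RA had 10.1 ± 1.05 CPM in TF-1 and 18.4 ± 0.161 in UT-7. Besides CSF1R, TF-1 held IL13RA1 (26.5 against 0.691 CPM), IL10RA (14.9 against 0.842 CPM) and KDR, a receptor of vascular endothelial growth factor, at 67 ± 2.68 CPM against 3 counts in all UT-7 libraries. Receptors of the angiopoietin system were likewise higher in TF-1, with TIE1 at 389 against 92 CPM and TEK at 57.1 against 12.2 CPM, and so was the leptin receptor LEPR at 546 against 181 CPM. UT-7 was higher for IL18R1 (4.14 against 31.5 CPM), IL9R (2.84 against 15.2 CPM), IL2RA (2.58 against 13 CPM) and IL4R (33.4 against 73.9 CPM). These 7 receptors were called and were named after their values were seen. In all, 14 of 39 tested receptors were large in TF-1 and 10 in UT-7 (35.9% and 25.6%, beside 20% and 13.6% of all tested genes).

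JAK2, the kinase that EPOR and the beta common receptor use, was far higher in UT-7. It had 51.3, 47.1, 50.2 and 53 CPM in the 4 TF-1 libraries and 387, 387, 379.8 and 387 in the 4 UT-7 libraries (log2 fold change -2.93 ± 0.04 (SE), adjusted p = 4.04e-39), and no library of TF-1 reached those of UT-7. STAT4 (0.139 against 15 CPM), the cytokine OSM (11.7 against 69.6 CPM) and the phosphatase PTPN6 (167 against 454 CPM) were also higher in UT-7, while JAK3 (24.8 against 5.5 CPM) was higher in TF-1. CISH (84.1 against 29 CPM) and BCL2L1 (392 against 176 CPM), which STAT5 is known to induce, were higher in TF-1. The list as a whole had 3 large members in TF-1 and 5 in UT-7 of 24 tested. Called members numbered 7 higher in TF-1 and 13 higher in UT-7, and the median log2 fold change was -0.20.

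Antigen presentation genes were higher in TF-1 almost throughout. MHC class II molecules show peptides to helper T cells, and their genes are switched on together by the coactivator CIITA acting on X and Y boxes bound by RFX and NF-Y. Of 12 tested class II genes, 11 were large in TF-1 and 0 in UT-7, and the median log2 fold change was 4.99. The exception was RFX5, called higher in UT-7 (63.5 against 86.8 CPM, named after its value was seen). HLA-DRA had 114, 118, 115 and 111 CPM in the 4 TF-1 libraries and 1.55, 1.17, 1.52 and 1.86 in the 4 UT-7 libraries (log2 fold change 6.23 ± 0.09 (SE), adjusted p = 5.01e-39), and the invariant chain CD74 had 149, 150.04, 152 and 157 CPM in the 4 TF-1 libraries and 2.11, 3.72, 4.06 and 4.1 in the 4 UT-7 libraries (log2 fold change 5.44 ± 0.08 (SE), adjusted p = 9.18e-37). The lowest TF-1 library exceeded the highest UT-7 library by a wide margin in both. HLA-DRB1 (38.5 against 0.451 CPM) and HLA-DPA1 (33.4 against 0.848 CPM) followed, and HLA-DQB1 had 13.2 ± 1.82 CPM in TF-1 and 0 counts in UT-7. CIITA itself had 13.2 against 0.732 CPM (also named after its value was seen). HLA-DRB1 and HLA-DRB5 share sequence, and HLA alleles differ from the reference, so single HLA levels are uncertain.

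The 150 bases before the start of 3 class II genes are shown because the family is known for shared promoter boxes. They come from RefSeq (GRCh38.p14), 5′ to 3′ on the gene's strand. Capitals mark TGATGA, the letters used here to search for an X box, and ATTGG or its reverse complement CCAAT, the Y box. The stretches are chr6:32589849-32589998, chr6:32953098-32953247 and chr6:32666658-32666807, all on the minus strand.
HLA-DRB1: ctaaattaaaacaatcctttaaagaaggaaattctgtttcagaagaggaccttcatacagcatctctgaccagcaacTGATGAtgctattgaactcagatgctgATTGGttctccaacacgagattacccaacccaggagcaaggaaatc
HLA-DMA: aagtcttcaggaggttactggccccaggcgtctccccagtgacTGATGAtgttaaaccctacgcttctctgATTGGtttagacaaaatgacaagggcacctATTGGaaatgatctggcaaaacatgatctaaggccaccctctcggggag
HLA-DQB1: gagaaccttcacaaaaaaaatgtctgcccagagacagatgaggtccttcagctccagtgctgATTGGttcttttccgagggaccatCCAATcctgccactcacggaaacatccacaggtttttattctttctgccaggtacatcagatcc
HLA-DRB1 and HLA-DMA hold both motifs in that order, and HLA-DQB1 holds the Y box letters without an exact TGATGA. Both strands of the 250 bases before the start were searched in the 12 of 14 listed genes that the table holds. ATTGG was found in 11 (91.7%) against 37% of all 27305 genes, TGATGA in 6 (50%) against 11.3%, and both in 6 (50%) against 3.95%. These matches describe the reference sequence and the absence of a match says only that these letters are not in this window. It does not say that a promoter lacks an X or Y box.

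Class I genes, which present peptides to killer T cells, had 8 large members in TF-1 and 0 in UT-7 of 15 tested. HLA-C stood at 20.5 ± 2.91 CPM in TF-1 and 1.83 ± 0.159 in UT-7 and HLA-E at 267 ± 7.36 CPM in TF-1 and 104 ± 1.31 in UT-7, and their coactivator NLRC5 at 15.2 ± 2.12 CPM in TF-1 and 1.8 ± 0.568 in UT-7. Genes induced by interferon were split, with 19 of 42 large in TF-1 and 9 in UT-7. IFITM1 (176 against 15.6 CPM), IFITM3 (321 against 41.7 CPM) and EPSTI1 (22.5 against 0.638 CPM) were higher in TF-1, and XAF1 (1.33 against 21.5 CPM) and DDX60 (0.605 against 9.31 CPM) in UT-7.

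Cancer-testis genes, normally expressed in germ cells, had a higher summed level in TF-1. Of 63 genes of the list found in the files, 32 had 0 counts in TF-1 and 45 in UT-7, 28 of them in both, and their summed level was 309 to 328 CPM in TF-1 and 70.1 to 74.8 in UT-7. The filter on low counts was passed by 14, and a gene could pass it through the line where it was high, as 10 with 0 counts in one line did. Of the 14, 10 were large in TF-1 and 2 in UT-7. MAGEA3 had 71.4, 69.6, 72.6 and 75.9 CPM in TF-1 and 0 counts in every UT-7 library (at least 348-fold higher). MAGEA12 (67.5 ± 6.46 CPM), MAGEA6 (56.3 ± 3.67 CPM), CSAG1 (19.3 ± 1.29 CPM) and MAGEC2 (7.67 ± 0.784 CPM) also had 0 counts in UT-7. MAGEA3 and MAGEA6 are near-identical and lie with MAGEA12 and CSAG1 in 1 family cluster, so the division of reads among them is uncertain. PRAME, another antigen of this kind, did not pass the test (67.9 against 64.7 CPM, named after its value was seen), and SYCP1 of meiotic chromosomes was found in UT-7 alone (2.93 CPM, 0 counts in TF-1, also named after its value was seen).

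**Figure D3:**
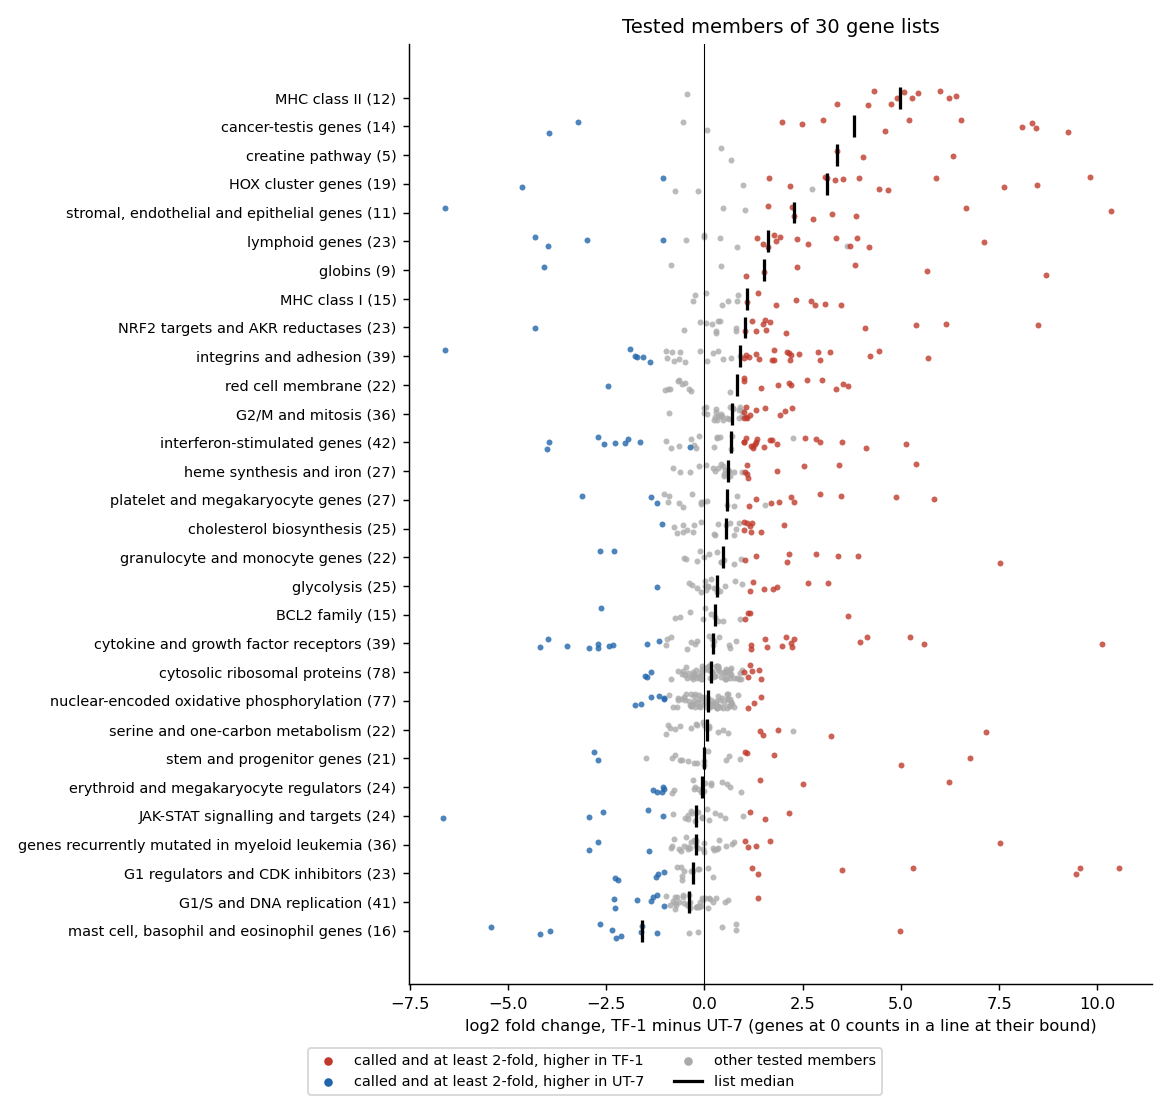
Log2 fold change TF-1 minus UT-7 of each tested member of 30 gene lists, ordered by list median (black bar), with the number tested in parentheses and genes at 0 counts in a line drawn at their lower bound. MHC class II and cancer-testis genes have the highest medians and mast cell, basophil and eosinophil genes the lowest, at -1.59.

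The machinery that starts the cell cycle differed gene by gene in the 2 lines. CCND2, a D-type cyclin, had 111, 122, 113 and 112 CPM in the 4 TF-1 libraries and 0.0704, 0, 0.381 and 0.149 in the 4 UT-7 libraries (log2 fold change 9.45 ± 0.21 (SE), adjusted p = 3.62e-23), while CCND1 had 57.5, 56.2, 60.4 and 63.1 CPM in the 4 TF-1 libraries and 274, 289, 292 and 285 in the 4 UT-7 libraries (log2 fold change -2.26 ± 0.05 (SE), adjusted p = 4.98e-31). The 2 cyclins were thus opposite, each without overlap. CCND2 in UT-7 lay near the level of 3 counts per library (0.208 CPM), so the size of its fold change depends on the model. The inhibitors CDKN2A and CDKN2B had 0 counts in UT-7, CDKN1C was at 37.4 against 3.34 CPM and CDKN1A at 8.14 against 37.2 CPM, and CCNE1 was at 95.4 against 37.3 CPM. Over the list of cell cycle regulators, 7 of 23 tested members were large in TF-1 and 5 in UT-7. Survival genes of the BCL2 family had 4 and 1 large members of 15, and 2 in TF-1 without UT-7 replicate 4. BCL2 was higher in UT-7 (11.7 ± 0.643 CPM in TF-1 and 72.5 ± 0.724 in UT-7) and BCL2L1, which encodes BCL-XL, in TF-1 (392 ± 9.16 CPM in TF-1 and 176 ± 3.24 in UT-7).

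Replication and mitosis genes leaned opposite ways by small amounts. Of 41 genes of G1/S and DNA replication, 30 were called higher in UT-7 and 7 in TF-1 (median log2 fold change -0.40), and 7 and 1 were large. Of 36 genes of G2/M and mitosis, 31 were called higher in TF-1 and 1 in UT-7 (median 0.69), and 11 and 0 were large. With library totals alone as scaling, 7 were large in TF-1. UHRF1, which keeps DNA methylation through replication, had 68, 66.6, 61 and 64.8 CPM in the 4 TF-1 libraries and 326, 323, 319.7 and 307 in the 4 UT-7 libraries (log2 fold change -2.29 ± 0.04 (SE), adjusted p = 2.57e-34), and the polymerase subunit POLE and the histone chaperone CHAF1A were at 52.9 against 175 CPM and 50.2 against 244 CPM. CDC20, the activator of the anaphase-promoting complex, had 537, 558, 529 and 523 CPM in the 4 TF-1 libraries and 124, 133, 132 and 134 in the 4 UT-7 libraries (log2 fold change 2.04 ± 0.05 (SE), adjusted p = 1.19e-29). UBE2C (127 against 27.3 CPM), TPX2 (681 against 233 CPM) and CENPA (52.6 against 13.8 CPM) were higher in TF-1 too. The share of cells in each phase was not measured.

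Metabolic enzymes were higher in TF-1 at several entry points. PHGDH, the first enzyme of serine synthesis from glucose, had 50.6, 57.7, 47.7 and 49 CPM in the 4 TF-1 libraries and 0.282, 0.414, 0.317 and 0.373 in the 4 UT-7 libraries (log2 fold change 7.18 ± 0.14 (SE), adjusted p = 7.08e-34). Over all serine and one-carbon genes, 5 of 22 were large in TF-1 and 0 in UT-7, beside 20% and 13.6% of all tested genes. Calls were near even, with 8 higher in TF-1, 7 higher in UT-7 and 7 not called (median log2 fold change 0.07). The summed level of that list was higher in UT-7, at 2016 to 2053 CPM against 1801 to 1850 in TF-1. ME1, the cytosolic malic enzyme that makes NADPH, had 136, 128, 127 and 137 CPM in the 4 TF-1 libraries and 0.211, 0.414, 0.444 and 0.373 in the 4 UT-7 libraries (log2 fold change 8.48 ± 0.10 (SE), adjusted p = 1.31e-41), and no library of one line reached those of the other. Aldo-keto reductases AKR1C3 (35.8 against 0.498 CPM) and AKR1C2 (5.07 against 0.295 CPM) were also higher in TF-1. They resemble each other in sequence, and their levels are uncertain. Among NRF2 targets and these reductases, 12 of 23 were large in TF-1 and 1 in UT-7. In glycolysis the muscle-type phosphofructokinase PFKM was higher in TF-1 (231 ± 7.41 CPM in TF-1 and 36.8 ± 1.89 in UT-7) and the liver-type PFKL in UT-7 (284 ± 3.59 CPM in TF-1 and 650.3 ± 20.8 in UT-7), and 7 and 1 of 25 genes were large. The cholesterol pathway had 8 large members in TF-1 and 1 in UT-7 of 25, among them SQLE, which makes squalene epoxide (514 against 190.3 CPM), and INSIG1 (380.4 against 166 CPM). Large in TF-1 were thus 28% of glycolysis and 32% of cholesterol genes, beside 20% of all tested genes. In each list 4% were large in UT-7, beside 13.6%. The creatine transporter SLC6A8 was at 520.4 against 31.9 CPM, and all 5 tested creatine genes were called higher in TF-1, 3 of them large. Arginine-glycine amidinotransferase GATM (17.2 against 0.206 CPM) and GAMT (20.1 against 1.94 CPM), the 2 enzymes of creatine synthesis, were 2 of these 3.

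Ribosomal protein genes took 6.46% ± 0.115 of counts in TF-1 and 6.06% ± 0.110 in UT-7 (exact permutation test, two-sided, p = 0.0286, n = 4). Within the list, 46 of 78 genes were called higher in TF-1 and 20 in UT-7, and 6 and 3 were large, below the 20% and 13.6% of all tested genes. RPL36 (451 against 1289.7 CPM) was large in UT-7 like RPS6, and RPL10, RPS7 (613 against 226 CPM) and RPL14 (637 against 277 CPM) in TF-1. Ribosomal protein genes have many processed copies, and how reads shared with those were counted is unknown here. Nuclear genes of oxidative phosphorylation were balanced, with 3 of 77 large in TF-1 and 6 in UT-7. Complex I subunits NDUFA11 (50.1 against 171 CPM) and NDUFB7 (30.7 against 94.3 CPM) were the strongest in UT-7, and SDHD of complex II (183 against 67.2 CPM) in TF-1.

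Adhesion and cytoskeleton genes separated the lines at several single genes. KRT18, a keratin of simple epithelia, had 162, 176, 167 and 169 CPM in the 4 TF-1 libraries and 0.141, 0.138, 0.19 and 0 in the 4 UT-7 libraries, and its filament partner KRT8 had 43 against 0.412 CPM. Cadherins differed in both directions, with CDH2 at 10.7 ± 0.872 CPM in TF-1 and 0 counts in UT-7 and CDH1 at 0.218 against 22 CPM. CD44, the hyaluronan receptor, was at 349 ± 8.48 CPM in TF-1 and 47.4 ± 0.968 in UT-7. Of 39 integrin and adhesion genes, 19 were large in TF-1 and 6 in UT-7. Of the other stromal, endothelial and epithelial markers, KRT19 was near 0 in both lines, EPCAM had 0.86 against 0.0517 CPM and COL1A1 0.975 against 0 CPM. The summed level of that list was 284 to 301 CPM in TF-1 and 71 to 76.8 in UT-7. Genes recurrently mutated in myeloid leukemia had 5 large members in TF-1, among them NF1 (86.1 against 26.8 CPM) and CBL (77.9 against 31.4 CPM), and 3 in UT-7, KIT, JAK2 and the methyltransferase EZH2 (38.3 against 101 CPM), of 36 tested. The large members were 13.9% and 8.33% of that list, below the 20% and 13.6% of all tested genes. Levels of expression say nothing about mutations in the genes of that list.

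Some large differences were shared by neighbouring genes. When 14220 of the 14588 tested genes were placed in the gene order of RefSeq, the longest run of consecutive genes large in TF-1 held 15, from SIPA1L3 to EIF3K and including SPINT2, and the next held 13, from MME to PTX3 and including GMPS and SSR3. Many stood alone: 1322 of 2830 placed genes large in TF-1 (46.7%) and 965 of 1913 large in UT-7 (50.4%) had no neighbour large in the same direction, and how long runs would be in a random gene order was not tested. In UT-7 the longest run held 16 genes, from DDX51 to ZNF268 with POLE and several zinc finger genes, then 14 from ZNF542P to AURKC, then 12 from SNAPC3 to ACER2 with PLIN2 and RPS6. SPINT2, GMPS, SSR3, POLE and RPS6, all named above for their own values, thus stood beside neighbours that differed in the same direction. Over windows of 40 consecutive tested genes the median log2 fold change lay between -0.76 and 0.83 at the 5th and 95th percentile of 13323 windows. The highest windows, which do not overlap, were TSHZ3 to CD22 at 1.54, FNDC4 to EIF2AK2 at 1.38 and FAM49A to CENPA at 1.36. FAM49A to CENPA and FNDC4 to EIF2AK2 were parts of 1 longer raised stretch in gene order. A window of 80 genes from SDC1 to MEMO1, which reaches into both, had a median of 1.32, with 59 genes large in TF-1. The lowest windows of 40 genes were KCNV2 to DENND4C at -1.93, with 28 of 40 genes large in UT-7 and JAK2 and PLIN2 among them, C19orf52 to ZNF443 at -1.74 and MPND to PSPN at -1.67. Under cyclocreatine, in libraries not used for that choice, the same 6 windows had medians of 1.63, 1.43, 1.2, -2.08, -1.64 and -1.49. UCSD-AML1 minus UT-7, on log2(CPM + 0.5), had medians of -0.21, 0.96, 1.11, -1.45, -1.63 and -1.01 in those windows. It shares the UT-7 libraries with the choice of windows and is given for description. These windows also held other genes named above that differed in the direction of their window. Examples were GPI, CEBPA and CD22 in TSHZ3 to CD22, CENPA in FAM49A to CENPA and EPOR and SMARCA4 in C19orf52 to ZNF443. Further examples were UHRF1, CHAF1A, RPL36 and NDUFA11 in MPND to PSPN.

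**Figure D4:**
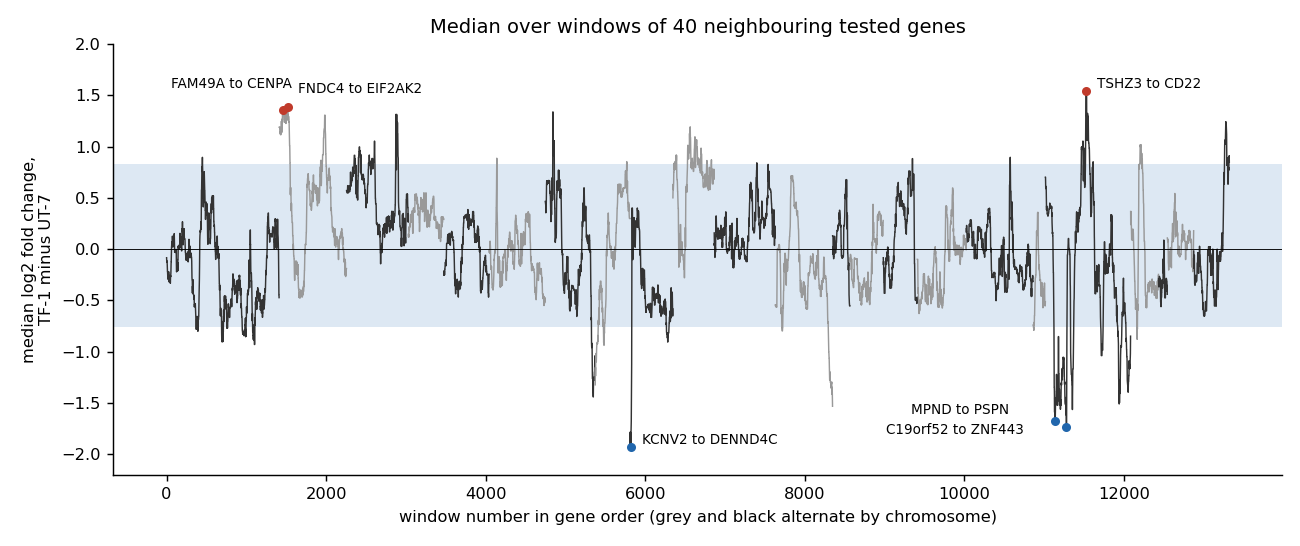
Median log2 fold change TF-1 minus UT-7 over windows of 40 neighbouring tested genes, in gene order, with the shaded band from the 5th to the 95th percentile of all windows. The 3 highest windows (red) and the 3 lowest (blue) that do not overlap are named by their first and last gene.

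A short block next to the lowest window changed side. It was chosen after its values were seen and is given as a description. ACER2, the last gene of the UT-7 run, had 2.78 CPM in TF-1 and 8.17 in UT-7. From the next tested gene on, UT-7 had almost no counts. MLLT3, a partner of transcription elongation factors, had 96.4 CPM in TF-1 and 3 counts over the 4 UT-7 libraries, FOCAD 58.3 CPM and 1 count, PTPLAD2 12.8 CPM and 0 counts, KLHL9 50.1 CPM and 0 counts, and MTAP of methionine salvage 83.6 CPM and 6 counts. CDKN2A and CDKN2B, next in order, also had 0 counts in UT-7, with CDKN2B at 8.25 CPM in TF-1, and the antisense gene CDKN2B-AS1 between them had 15 counts in UT-7. Overlapping and antisense genes cannot be separated without strand, whose use in counting no source here states. The following gene, CAAP1, was expressed in both lines, at 67.2 and 27.2 CPM. UCSD-AML1 held MLLT3 at 254, MTAP at 74.5 and KLHL9 at 85.5 CPM, and CDKN2A at 1.81 CPM.

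The same comparison in the 8 cyclocreatine libraries, whose counts do not enter the vehicle means although the fit pools the spread of all libraries, was a repeat under another condition. There 2834 genes (19.4%) were large in TF-1 and 2186 (15%) in UT-7. Of the 2921 genes large in TF-1 under vehicle, 2451 (83.9%) were large in TF-1 again, and of the 1977 large in UT-7, 1637 (82.8%) were. Calls in the opposite direction numbered 8 and 3 among these large genes, and 205 over all 14588 tested genes. The 6 genes that were large in both treatments with opposite sign, HIST1H2BO and OASL among them (named after their values were seen), had at most 0.838 CPM in both lines under vehicle. Across the 14588 tested genes, which are not independent of each other, the 2 line differences had a Pearson correlation of 0.951 and a Spearman correlation of 0.915, and 88.2% had the same sign. TF-1 cyclocreatine replicate 1 stood apart from its group in the share of counts in ribosomal protein genes, 10.3% where the other 3 had 8.48% to 8.53%, and without it 2439 and 1639 genes were large again (added after seeing the data). KIT, CD34 and HBG1 kept their direction, with log2 fold changes under cyclocreatine of -2.26 for KIT, 6.27 for CD34 and -3.90 for HBG1.

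**Figure D5:**
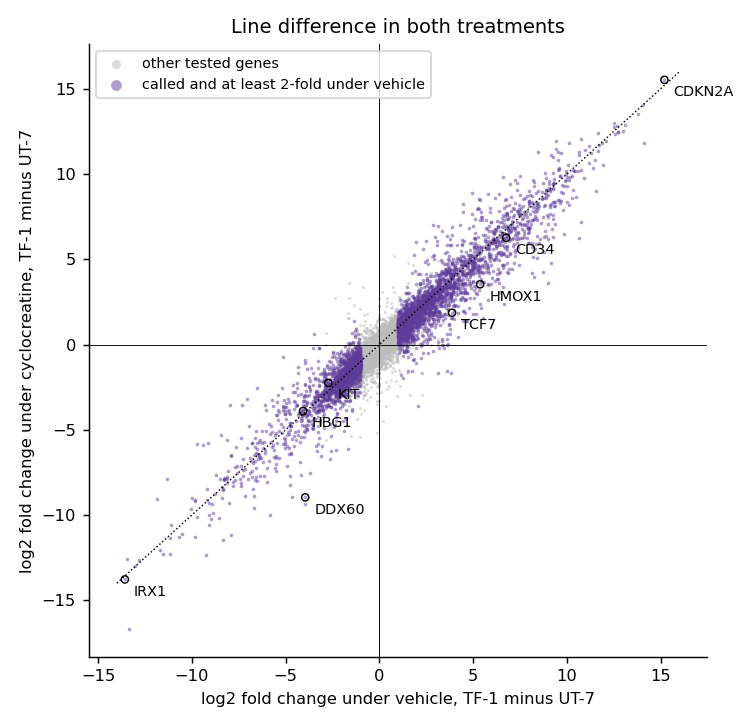
Log2 fold change TF-1 minus UT-7 of each tested gene under vehicle (horizontal) and under cyclocreatine (vertical), purple for the 4898 genes called and at least 2-fold under vehicle, with a dotted line of equality. Most points lie along the line, while HMOX1, TCF7 and DDX60 lie off it, and positions of genes with no count in 1 line depend on the model.

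UCSD-AML1 under vehicle stood on either side for the genes that separated the lines. Of the 2921 genes large in TF-1, its mean CPM was above both lines for 916, between them for 1095 and below both for 910. For the 1977 genes large in UT-7 the numbers were 494, 947 and 536. CD34 was at 584 ± 19.6 CPM in UCSD-AML1, above TF-1 and UT-7, and KIT at 177 ± 5.51 CPM. GATA1 was at 21 ± 1.08 CPM and EPOR at 2.57 ± 0.464 CPM. MECOM was at 412 ± 14.7 CPM there, above 13 CPM in TF-1 and 6.34 in UT-7, which differed from each other (log2 fold change 1.04 ± 0.17 (SE), adjusted p = 9.40e-06). The comparisons of TF-1 and of UT-7 with UCSD-AML1 share the vehicle libraries described here and are not used as further evidence.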

How the data were processed

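RNA of 8 vehicle libraries (TF-1 and UT-7, 4 each) was described, with 16 further libraries of the same study used in the fit, as a repeat and as a further level. The deposited files hold, for each library, whole-number counts for 25728 gene symbols. The submitters' processing notes name FastQC, TopHat2 and RSEM and the builds GRCh37 and hg19; which tool made the counts, its version, strand use and the handling of reads that match several genes no source used here states. At least 1 symbol had been turned into a date (10-Sep), and symbols are printed as the files give them.

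From these counts, edgeR 4.0.16 (R 4.3.3) with TMM scaling kept 14588 genes (filterByExpr, smallest count 10, smallest total 15, 6 groups), which held at least 99.93% of counts. A robust quasi-likelihood model of 6 group means over all 24 libraries (18 residual degrees of freedom) gave the contrasts, with Benjamini-Hochberg adjustment over 14588 genes. Log2 CPM used a prior count of 2, and 3 counts per library stood for a gene with 0. The fit was tested on simulated data. Alternatives were DESeq2 1.42.0, limma-voom (limma 3.58.1), glmTreat, other scaling, filters, the 8 libraries alone, a replicate block and each library left out. Scaling by size factors moved all log2 fold changes by 0.026 and library totals by -0.076. Libraries of a group differed by more than counting noise (12 pairs, chi-square divided by its degrees of freedom 1.29 to 4.04). Shares were compared by exact permutation (numpy 2.4.6), and figures were drawn with matplotlib 3.10.9.

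Named genes were the 15 largest per direction by fold (mean of at least 10 CPM in the higher line, no overlap) and by CPM difference, up to 6 per gene list by size of fold among called members of at least 5 CPM, and lineage and receptor genes listed by name. Members and the 31 gene lists were chosen with earlier results of these data known. Some genes are not reported here. The gene order, promoters and names came from RefSeq (GRCh38.p14), and no coordinates of the files' build were used.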

Additional observations from a re-analysis of the deposited data

Results flagged for a closer look

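In 19 of 377 groups of 4 libraries tested over the named genes (5.04%), 1 library stood apart by Dixon's criterion, a rate that chance alone gives in about 1 group in 20. Of these, 6 were in UT-7 replicate 1, 4 in UT-7 replicate 4 and 3 in TF-1 replicate 3. Among red cell and platelet lineage genes these were GYPE with 8.1 CPM in UT-7 replicate 1 against 6.91 to 7.08, NFE2 with 185 CPM in TF-1 replicate 2 against 176 to 177 and HBQ1 with 19.5 CPM in TF-1 replicate 3 against 15.2 to 15.6. Among receptors and signalling genes they were CSF2RA with 17.5 CPM in UT-7 replicate 1 against 15.9 to 16.1, CSF2RB with 313 CPM in TF-1 replicate 3 against 289 to 292, IL3RA with 18.2 CPM in UT-7 replicate 1 against 18.5 to 18.5, JAK2 with 379.8 CPM in UT-7 replicate 3 against 387 to 387 and OSM with 64.3 CPM in UT-7 replicate 1 against 71.2 to 71.6. Among metabolic genes they were CKM with 13.6 CPM in TF-1 replicate 3 against 10.5 to 10.9, MTHFD1 with 191 CPM in TF-1 replicate 4 against 184 to 185, SQLE with 198 CPM in UT-7 replicate 1 against 187 to 189 and DHCR7 with 91.5 CPM in UT-7 replicate 4 against 102 to 103. Among cell cycle and progenitor genes they were CDC20 with 124 CPM in UT-7 replicate 1 against 132 to 134, CCNB2 with 184 CPM in TF-1 replicate 4 against 173 to 174, TRIB2 with 66.3 CPM in UT-7 replicate 4 against 69.7 to 70.2 and HOXB2 with 45.2 CPM in UT-7 replicate 4 against 42.4 to 42.9. The remaining 3 were TPT1 with 1844 CPM in TF-1 replicate 1 against 1959 to 1975, PSMB8 with 20.6 CPM in UT-7 replicate 2 against 17.3 to 17.8 and PECAM1 with 46.5 CPM in UT-7 replicate 4 against 50.5 to 51.3.

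For 13 named genes the difference between TF-1 and UT-7 itself changed with treatment by at least 2-fold in edgeR's interaction contrast (values are log2 fold changes TF-1 minus UT-7, n = 4 per group, Benjamini-Hochberg adjusted over all tested genes). HMOX1, the heme-degrading enzyme, had a smaller difference under cyclocreatine: HMOX1 (5.38 under vehicle, 3.54 under cyclocreatine, difference 1.84, adjusted p = 2.48e-08). GYPB of the red cell surface had a larger one: GYPB (3.65 under vehicle, 4.8 under cyclocreatine, difference -1.15, adjusted p = 0.00277). Class II antigen genes also had larger ones, HLA-DRB1 (6.4 under vehicle, 7.87 under cyclocreatine, difference -1.47, adjusted p = 0.0322) and HLA-DPA1 (5.29 under vehicle, 6.32 under cyclocreatine, difference -1.03, adjusted p = 0.0147). Interferon-induced genes among them were DDX60 (-3.95 under vehicle, -8.96 under cyclocreatine, difference 5.01, adjusted p = 7.73e-05), IFIT1 (2.84 under vehicle, 1.25 under cyclocreatine, difference 1.59, adjusted p = 9.53e-05) and XAF1 (-4.01 under vehicle, -5.06 under cyclocreatine, difference 1.06, adjusted p = 0.00702). The other genes were TCF7 (3.88 under vehicle, 1.87 under cyclocreatine, difference 2.01, adjusted p = 4.86e-04), HOXB7 (3.13 under vehicle, 1.97 under cyclocreatine, difference 1.17, adjusted p = 0.0131) and CDKN1C (3.49 under vehicle, 1.79 under cyclocreatine, difference 1.70, adjusted p = 1.35e-10). Lipid and granule genes among them were INSIG1 (1.2 under vehicle, 0.08 under cyclocreatine, difference 1.12, adjusted p = 3.97e-17), RAB27B (3.47 under vehicle, 4.71 under cyclocreatine, difference -1.24, adjusted p = 0.0194) and SIGLEC6 (-2.34 under vehicle, -3.47 under cyclocreatine, difference 1.12, adjusted p = 8.28e-08). DDX60 in TF-1 and the 2 class II genes in UT-7 were low already under vehicle, so the sizes of their fitted differences depend on the model. What the changes of these 13 genes rest on was not tested.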

How the results depend on the processing

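Called genes numbered 5557 to 6387 higher in TF-1 and 5497 to 6159 in UT-7 over the alternatives that kept the test of any difference, and leaving out 1 library gave 2930 to 2962 and 1984 to 2021 large genes. A test against a 2-fold change (glmTreat) called 2381 and 1473. Fitted on the 8 libraries alone, 2559 and 1795 genes were large. With library totals alone they numbered 2721 and 2186, and with no filter on low counts 3424 and 2525. Of 3872 values of 242 tested named genes, 3853 kept direction and side of the threshold. CSF2RA lost its call in 8 and HOXB4 in 6, and KLF1, which was not called, changed sign in 5. KLF1 had a log2 fold change of 0.0184 with DESeq2 and with its size factors in edgeR, and -0.0301 to 0.006 without 1 library. Of 1054 counts of large list members, 1029 stayed within 1.5 times. The others are given as counts of large members. With glmTreat they were heme and iron 5 in TF-1, regulators 3 in UT-7, HOX 1 in UT-7, BCL2 family 2 in TF-1 and G2/M 7 in TF-1. With library totals alone, heme and iron had 5 in TF-1, red cell membrane 2 in UT-7, serine metabolism 2 in UT-7 and G2/M 7 in TF-1. With no filter on low counts, red cell membrane had 2 in UT-7, mast cell genes 2 in TF-1, creatine 5 in TF-1 and stromal genes 2 in UT-7. A filter of 1 CPM left mast cell genes with 0 in TF-1. Fitted on the 8 libraries alone, where fewer genes passed the filter, red cell membrane had 2 in UT-7, granulocyte and monocyte genes 5 in TF-1 and 1 in UT-7, mast cell genes 0 in TF-1, lymphoid genes 1 in UT-7, NRF2 targets 0 in UT-7 and stromal genes 5 in TF-1. Leaving out 1 library gave red cell membrane 1 to 2 in UT-7 (2 without TF-1 replicate 1, UT-7 replicate 3 or UT-7 replicate 4) and the BCL2 family 2 to 4 in TF-1 (2 without UT-7 replicate 4). For the other settings the cause was not tested. Genes near the floor numbered 342 in UT-7 and 78 in TF-1 with at most 10 counts per library, and 55 and 18 with 0. The highest median over 20 neighbouring genes was 4.61 (HOTAIRM1 to CPVL). Large genes called again under cyclocreatine numbered 2439 and 1639 without TF-1 cyclocreatine replicate 1. With the replicate number as a block, 5963 and 5617 genes were called and 2910 and 1971 were large, and no call on a named gene changed. Same-numbered libraries did not deviate together (correlations -0.027 to 0.03, and none correlated best with its own number). Effects that differ between the lines would not show in this check, so pairing by number is not excluded. In counts simulated for this comparison over 14588 genes, 200 genes were changed. Of these, 30 of 40 raised 1.5-fold, 39 of 40 raised 2-fold and 34 of 40 lowered 2-fold were called. Far more genes were called in the data (11626), so these rates check the fit and do not estimate recovery in the data. Depth limits statements on genes under about 3 counts per library, and expression of such genes was not detectable at this depth.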
